A study of Homo sapiens with 6 samples.

Results

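The genes described here encode RNA-binding proteins of AU-rich elements (AREs) and were chosen by symbol, 9 of the 26364 genes of the authors' deposited table. They are the 4 ELAV-like genes ELAVL1, ELAVL2, ELAVL3 and ELAVL4 and the 5 decay factor genes ZFP36, ZFP36L1, ZFP36L2, HNRNPD and KHSRP. ELAVL4 was included because it fell, so its fold change is a description and carries no test. The others complete the families by their function. REH is an established human line of B precursor leukaemia cells (acute lymphoblastic). For 3 libraries the cells had been transduced by lentivirus with a short hairpin RNA against STAT3 (shSTAT3), and in the other 3 with a scramble hairpin. All cells had 3 days of puromycin selection and dead cell removal, and the replicates came from 3 independent experiments with the same line. The table gives 1 mean normalized count over the 6 libraries, 1 log2 fold change, 1 p-value and 1 adjusted p per gene, and no value per library. The means sum to 11485068 normalized counts per library.

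AREs are stretches rich in A and U in the 3′ untranslated regions (UTRs) of short-lived mRNAs, among them those of cytokines, immediate-early factors, cyclins and survival proteins. ELAV-like proteins bind such sequences and generally stabilize the mRNA, whereas the ZFP36 zinc finger proteins recruit the CCR4-NOT deadenylase and speed decay. HNRNPD (AUF1) and KHSRP (KSRP) also promote decay of many ARE mRNAs, although HNRNPD can stabilize some. ELAVL1 (HuR) is expressed in most cells, while ELAVL2, ELAVL3 and ELAVL4 (HuB, HuC and HuD) are known mainly from neurons. In mouse, Zfp36l1 and Zfp36l2 are together needed for normal B-cell development.

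Several of these genes carry ARE sequence in their own mRNAs. In the GENCODE 29 transcript with the longest coding sequence, the heptamer TATTTAT, the core that ZFP36 proteins bind, was found in the 3′ UTRs of 6 of the 9 genes, on the transcribed strand and with overlapping matches counted. It occurred 5 times in ELAVL1, 5 times in ELAVL3, 3 times in ELAVL2 and 3 times in each of ZFP36, ZFP36L1 and ZFP36L2. HNRNPD and KHSRP had 0 matches. ELAVL4 had 0 in the 221 bases of that transcript's UTR and 2 in the 2608 bases of the UTR of its longest annotated 3′ end. Of all 10576 tested genes with a 3′ UTR that could be scanned, 31.6% held the heptamer. The 9-base form TTATTTATT, which contains the heptamer, stood in 8.07% of them. In ELAVL4 the 9-base form was found only in the UTR of 2608 bases and not in that of 221 bases. Which 3′ end of ELAVL4 REH cells use was not tested. The sites are printed for the 5 measured genes with the 9-base form in either UTR, in capitals and with GRCh38 coordinates from GENCODE 29:
ZFP36 (chr19:39409196-39409224, plus strand): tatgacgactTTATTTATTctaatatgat
ZFP36L1 (chr14:68788077-68788105, minus strand): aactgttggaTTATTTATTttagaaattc
ZFP36L2 (chr2:43223448-43223476, minus strand): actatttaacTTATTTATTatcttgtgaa
ELAVL1 (chr19:7961828-7961856, minus strand): atttatgtatTTATTTATTgaagtgtgaa
ELAVL4 (chr1:50202514-50202542, plus strand): cttgaaacacTTATTTATTtaatcgccga
A match is a description of the sequence and does not show that a protein binds there. Around the shared capitals the flanks of the 5 sites differ.

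Among the mRNAs of the ARE-binding proteins, 3 besides ELAVL4 were lower in shSTAT3 cells and none was called higher. ZFP36L1 was at 58.9% of its scramble level, HNRNPD at 74.6% and ELAVL1 at 87.1%, by the fold changes per the authors' deposited table. ELAVL4, picked for its fall, was at 19.6% of scramble per the authors' deposited table, below every other measured gene of the group. ZFP36, ZFP36L2 and KHSRP did not pass, and ELAVL2 and ELAVL3 were listed at 0. Of the 6 tested genes other than ELAVL4, 3 were called lower at the authors' adjusted p under 0.05 (DESeq2), beside 23.2% of all 12061 tested genes. None of the 6 was called higher by that test or at an unadjusted p under 0.05, beside 21.3% of all tested genes. In either direction 44.5% of all tested genes were called. Nothing is read from these shares, because the genes were chosen from the same comparison. In bulk RNA, fewer cells of a type and less RNA per cell cannot be told apart. The median log2 fold change of the 6 genes was −0.17, and that of all tested genes was 0.0027.

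The direction of the comparison was taken from STAT3, which the hairpin targets and which stood at 29.8% of scramble per the authors' deposited table (−1.75 in log2 units, with a 95% interval of −1.93 to −1.56). The table does not state its numerator, so this is no independent check of the labels. Of 16 B-cell precursor markers, 14 were tested, led by RAG1 and DNTT with means of 20516 and 16549 normalized counts per the authors' deposited table. VPREB1 was listed at 0, and 2 of the 14 were called higher and 6 lower. Of 15 T-cell and myeloid markers 4 were tested, MPO and ITGAM with the highest means, 2330 and 410 per the authors' deposited table, and the T-cell genes CD3D, CD3G and CD7 were listed at 0. Of those 4, 1 was called higher and 2 lower. Beside both marker lists, 21.3% of all tested genes were called higher and 23.2% lower. The part of these markers in the results below was not tested.

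**Figure D1:**
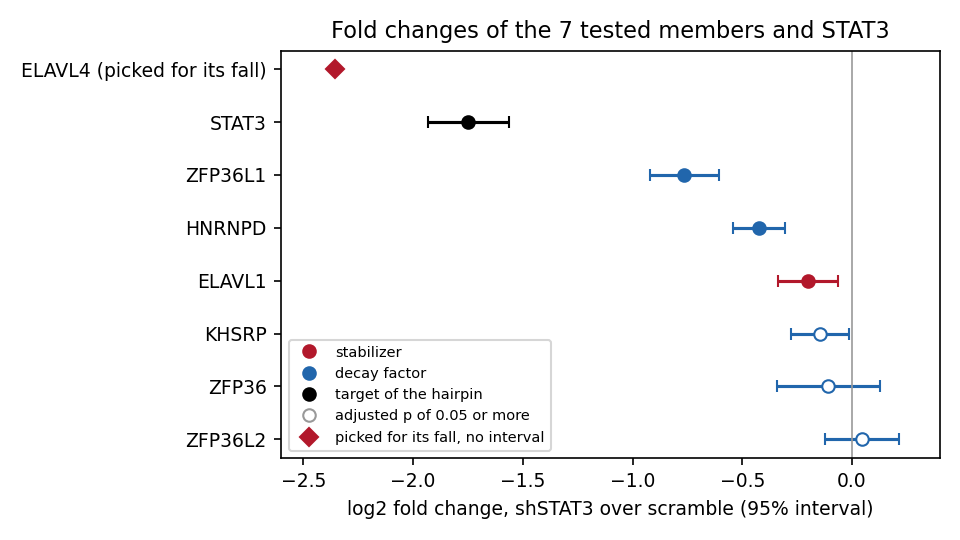
The log2 fold change of shSTAT3 over scramble is on the x axis, for the 7 tested genes of the group and for STAT3. The 95% intervals implied by the authors' p-values are drawn for all of them but ELAVL4. Filled circles passed an adjusted p of 0.05, open circles did not, and the diamond is ELAVL4, which was picked for its fall. ZFP36L1 at −0.76 and HNRNPD at −0.42 lie left of 0, and ZFP36L2 at 0.05 lies nearest to it on the right.

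Among the stabilizers, ELAVL4 encodes HuD, which in neurons stabilizes mRNAs of growth and differentiation. The gene lies on chromosome 1 from 50048014 to 50203786 on the plus strand (GRCh38, GENCODE 29). Its mean over the 6 libraries was 239 normalized counts per the authors' deposited table, which with its log2 fold change of −2.35 implies about 78.3 in shSTAT3 and 400 in scramble cells. By fold it ranked 2 among the genes called lower, after C6orf223 at −3.84 and before KBTBD13 at −2.23 per the authors' deposited table, both named after their values were seen. Its fold change thus stood in the far tail of the table, in the place for which it was picked.

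The genes on either side of ELAVL4 were barely measured. AGBL4, which encodes a deglutamylase of tubulin, and DMRTA2, a DMRT-family transcription factor gene, had means of 0.992 and 0.933 per the authors' deposited table and log2 values of 0.10 and −0.15. Neither has an adjusted p. The other neuronal and neuroendocrine genes were mostly at or near 0 as well. Of 30 such genes, 11 were listed at 0 and another 13 had means of 3.17 or less and no adjusted p, including the neuron-defining genes STMN2, SNAP25 and DCX at 0, 0 and 0.176 per the authors' deposited table. Of the 6 that were tested, 3 were called lower and 1 higher, beside 23.2% and 21.3% of all tested genes. ENO2, a glycolytic enzyme, and the vesicle calcium sensor gene SYT1 had the highest means, 449 and 198, and log2 fold changes of −0.50 and −0.65 per the authors' deposited table (adjusted p = 0.000502 and 8.33e-05). The member that rose was SYP, a synaptic vesicle gene with a mean of 22.4 and a log2 value of 1.78 per the authors' deposited table, named after its value was seen.

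ELAVL4 has 7 annotated starts in RefSeq (GRCh38.p14), and the table does not show which of them REH cells use. The palindrome TTCNNNGAA, the consensus that STAT factors bind, was searched in the promoter windows from 250 bases before to 50 bases after each start. It is found in 7.66% of the 35116 windows that RefSeq gave. Windows were found for 6 of the 9 genes, which are ELAVL2, ELAVL4, ZFP36, ZFP36L1, HNRNPD and KHSRP, and 1 of their 18 windows holds it (5.56%). That window is the last of the 7 for ELAVL4, and it is printed because it is the single match, with the 9 matching bases in capitals, 151 bases before the start:
ELAVL4 (chr1:50120501-50120800, plus strand): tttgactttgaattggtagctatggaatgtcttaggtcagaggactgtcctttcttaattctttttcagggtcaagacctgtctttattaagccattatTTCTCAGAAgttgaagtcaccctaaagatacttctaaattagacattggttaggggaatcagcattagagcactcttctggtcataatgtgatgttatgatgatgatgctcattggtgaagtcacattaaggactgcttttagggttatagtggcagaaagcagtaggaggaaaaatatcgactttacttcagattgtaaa
No window of ZFP36L1 or HNRNPD, which fell, held these letters, which says nothing of STAT3 binding elsewhere.

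ELAVL1 encodes HuR, the broadly expressed stabilizer, and is a minus-strand gene of chromosome 19 (7958579 to 8005659). Its mean was 2776 normalized counts per the authors' deposited table, or an implied 2585 in shSTAT3 and 2968 in scramble cells. Its log2 fold change was −0.20 (95% interval −0.34 to −0.06, adjusted p = 0.0117 by the authors' DESeq2 test) per the authors' deposited table. The fall was small, and it did not pass an adjusted p of 0.01. ELAVL2, on chromosome 9, and ELAVL3, on chromosome 19, were listed at a mean of 0. A count of 0 over all 6 libraries allows a mean of up to 0.5 normalized counts in each gene (3 counts over the 6 libraries, counting error only). ELAVL4 was thus the measured gene among the 3 neuronal paralogues.

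Per transcript length the makeup of the ELAV-like mRNAs differed between the groups. With the transcript of the longest coding sequence, 1.442 kb for ELAVL4 and 6.015 kb for ELAVL1, ELAVL4 made up 11.2% of the ELAV-like level per kb in shSTAT3 cells and 36.0% in scramble cells. With the longest annotated ELAVL4 3′ UTR, 3.966 kb in all, these shares were 4.39% in shSTAT3 and 17.0% in scramble cells. ELAVL1 was the more abundant of the pair in both groups with either length. These shares follow from the fold change that picked ELAVL4 and are no further evidence for it.

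**Figure D2:**
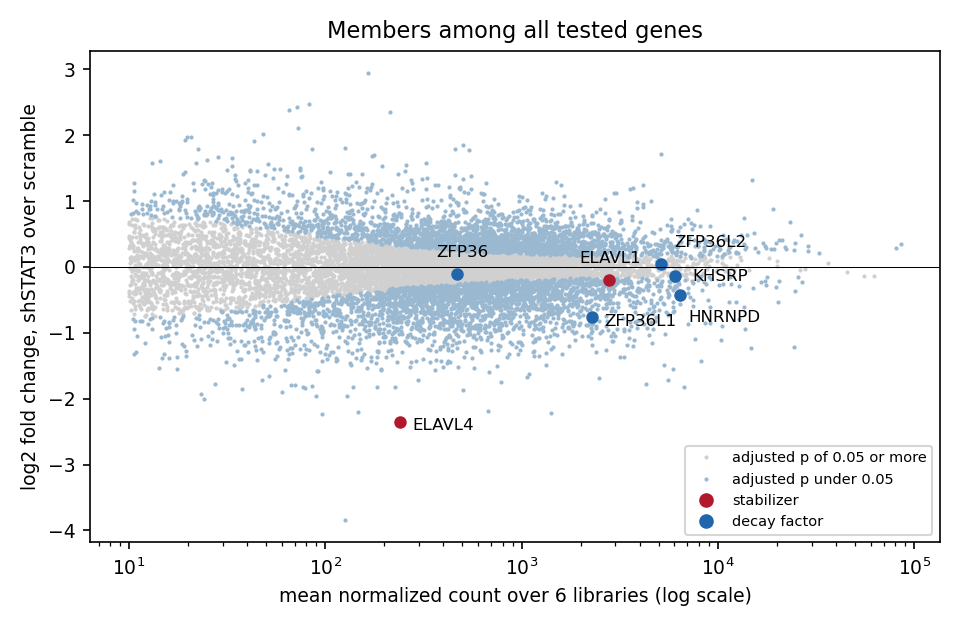
Each dot is 1 of the 12061 tested genes, with its mean normalized count over the 6 libraries on a log x axis and its log2 fold change of shSTAT3 over scramble on the y axis. ELAVL4, at a mean of 239 and −2.35, lies lowest but for 1 gene, while the other 6 tested genes of the group lie between −0.76 and 0.05.

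Among the decay factors, the ZFP36 family was not uniform. ZFP36L1, also called BRF1 or TIS11B, fell, with a log2 fold change of −0.76 (95% interval −0.92 to −0.61, adjusted p = 1.48e-19 by the authors' DESeq2 test) per the authors' deposited table. It is a minus-strand gene of chromosome 14 (68787660 to 68796253). Its mean of 2289 normalized counts per the authors' deposited table implies 1696 in shSTAT3 and 2881 in scramble cells. Lower folds than that of ZFP36L1 were found for 6.43% of all tested genes.

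ZFP36L2, on chromosome 2 from 43222402 to 43226609, was the most abundant of the 3 and did not pass. Its mean was 5162 and its log2 fold change 0.05 per the authors' deposited table (95% interval −0.12 to 0.22, adjusted p = 0.699). The founding member ZFP36, or tristetraprolin, on chromosome 19 from 39406813 to 39409412, averaged 470 normalized counts with a log2 fold change of −0.11 per the authors' deposited table (95% interval −0.34 to 0.13, adjusted p = 0.489). Neither interval overlaps that of ZFP36L1, and the 2 intervals overlap each other. The difference between the paralogues was not tested, because the table holds no values per library.

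Per kb, ZFP36L1 made up 24.1% of the summed ZFP36 family level in shSTAT3 cells and 35.4% in scramble cells. ZFP36L2 made up 64.4% in shSTAT3 and 53.9% in scramble cells, and ZFP36 11.5% in shSTAT3 and 10.7% in scramble cells. The family sum was 2204 normalized counts per kb in shSTAT3 and 2550 in scramble cells. The order of the 3 genes by level per kb was the same in both groups, with ZFP36L2 highest and ZFP36 lowest.

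HNRNPD, which encodes the AUF1 isoforms, fell, with a log2 fold change of −0.42 (95% interval −0.54 to −0.30, adjusted p = 5.87e-11 by the authors' DESeq2 test) per the authors' deposited table. It is a minus-strand gene of chromosome 4 (82352498 to 82374503), and its mean was 6417 normalized counts per the authors' deposited table. The implied levels were 5485 in shSTAT3 and 7349 in scramble cells. The table has 1 row for the gene, so isoforms are not resolved, and 2 processed pseudogenes annotated for it have no row, so reads shared with them could change its count. KHSRPP1, a processed pseudogene annotated for KHSRP, has no row either, so the same limit holds for the KHSRP count. KHSRP, on chromosome 19 from 6413348 to 6424794, encodes a KH-domain protein that brings the exosome to ARE mRNAs. Its mean was 6075 and its log2 fold change −0.14 per the authors' deposited table (95% interval −0.28 to −0.01, adjusted p = 0.0689). The interval is not adjusted for multiple testing, and the call turned with the centring of the fold changes, where the adjusted p was 0.0372, with a range of 0.0372 to 0.0994 over the alternatives. KHSRP and HNRNPD were the most abundant of the 9 genes per kb.

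**Figure D3:**
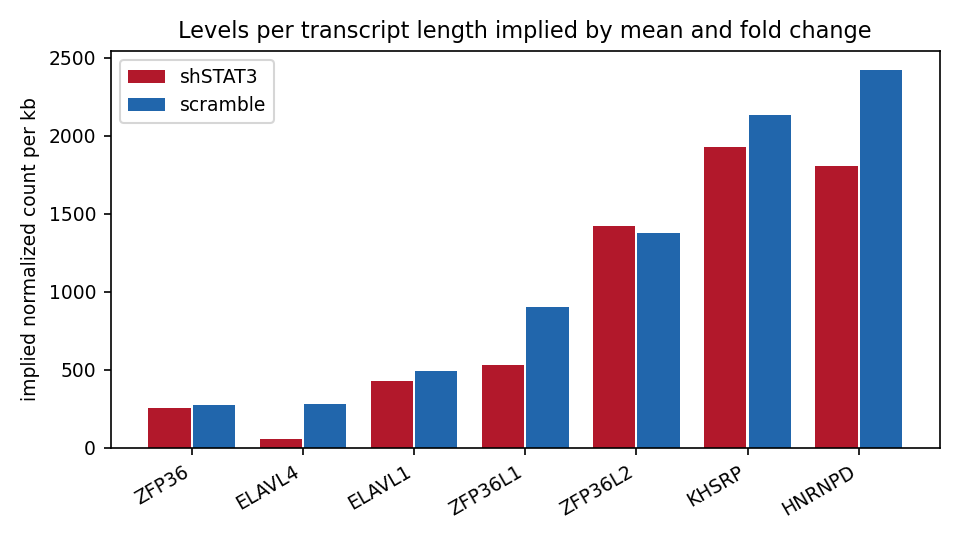
Bars give the normalized count per kb of transcript that the mean and fold change in the deposited table imply, in shSTAT3 (left bar of each pair) and scramble cells (right bar), with genes ordered by the scramble level. The levels run from 54.3 in shSTAT3 cells for ELAVL4 to 2423 in scramble cells for HNRNPD, and the table holds no value per library for an error bar. With the longest annotated ELAVL4 3′ UTR, the ELAVL4 levels are 19.7 in shSTAT3 and 101 in scramble cells. The order of ELAVL4 and ZFP36 by scramble level then turns.

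In the order of fold changes, the intervals of ZFP36L1 and HNRNPD did not overlap, whereas each further neighbour overlapped the next, from HNRNPD through ELAVL1, KHSRP and ZFP36 to ZFP36L2.

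Genes for proteins that modify or carry the ARE-binding proteins were called in both directions, with MAPKAPK2 and ANP32B lowest. MAPKAPK2, the kinase MK2 that acts below p38 and phosphorylates ZFP36 to restrain its activity, fell to 38.7% of scramble per the authors' deposited table (−1.37 in log2 units, with a 95% interval of −1.52 to −1.22 and an adjusted p of 4.22e-69). ANP32B, a HuR ligand that links it to nuclear export, fell, at −1.08 per the authors' deposited table (adjusted p = 2e-60), as did the 14-3-3 gene YWHAE, of a family that binds phosphorylated ZFP36 proteins, at −0.53 (adjusted p = 5.46e-15). Of 28 tested partners, 9 were called lower and 4 higher, which is 32.1% and 14.3%, beside 23.2% and 21.3% of all tested genes, and their median log2 fold change was 0.0038. The 4 that rose, named after their values were seen, were the methyltransferase gene CARM1, the importin gene TNPO2, the kinase gene ATM and the p38 gene MAPK11, at 0.50, 0.39, 0.52 and 0.52 in log2 units per the authors' deposited table. MAPK14, the main p38 kinase, and the exportin gene XPO1, also chosen after their values were seen, fell, at −0.26 and −0.31 per the authors' deposited table. MAPKAPK3, the kinase closest to MK2, was at 0.20 per the authors' deposited table (adjusted p = 0.179).

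In the machinery that the decay factors recruit, most genes were not called, as among all tested genes, of which 44.5% were called. Of 19 tested deadenylation genes, 7 were called lower (36.8%) and 0 higher by the authors' DESeq2 test (median −0.19), beside 23.2% lower and 21.3% higher among all tested genes, and 12 were not called. At an unadjusted p under 0.05 1 was higher. The poly(A) ribonuclease gene PARN, the CCR4-NOT subunit gene CNOT10 and PAN3, the partner of the PAN2 deadenylase, had log2 fold changes of −0.60, −0.59 and −0.69 per the authors' deposited table (adjusted p = 2.26e-08, 4.91e-07 and 0.000563). CNOT1, the scaffold that ZFP36 proteins contact, was chosen after its value was seen and fell by 0.20 per the authors' deposited table (adjusted p = 0.0128).

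Of 19 tested exosome and Ski complex genes, 7 were called lower (36.8%), 1 higher (5.26%) and 11 in neither direction (median −0.09). Beside this list and the next, 23.2% of all tested genes were called lower and 21.3% higher. The helicase gene SKIV2L2 (MTREX, not the Ski gene SKIV2L) and the exosome ring genes EXOSC8 and EXOSC9 had log2 fold changes of −0.77, −1.13 and −0.63 per the authors' deposited table (adjusted p = 8.91e-19, 6.62e-14 and 3.96e-07). The Ski complex genes SKIV2L, TTC37 and WDR61, named after their values were seen, were not called. Their log2 fold changes were −0.0018, −0.08 and 0.07 per the authors' deposited table (adjusted p = 0.990, 0.401 and 0.604). EXOSC5, another ring gene, was the one that rose, by 0.35 per the authors' deposited table. Of 20 tested decapping and 5′ decay genes, 6 were called lower (30%), 3 higher (15%) and 11 in neither direction (median −0.06). LSM1 and LSM3, parts of the ring that binds deadenylated mRNA, and the P-body gene LSM14A fell, at −0.95, −0.61 and −0.33, per the authors' deposited table (adjusted p = 1.48e-11, 1.8e-06 and 9.43e-05). The 3 that rose, EDC3, DCP1A and LSM7, were at 0.36, 0.34 and 0.27 per the authors' deposited table. EXOSC5 and these 3 were named after their values were seen.

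Of 43 tested genes for other proteins that bind AREs or 3′ UTRs, 13 were called lower and 11 higher (median −0.03). These shares of 30.2% and 25.6% lie near the 23.2% and 21.3% of all tested genes. The median mean of this list was 2516 normalized counts, against 462 for tested genes with a scanned 3′ UTR. The part of expression level in the shares of the lists was not tested. NCL, or nucleolin, which also binds AREs, fell by 0.61 in log2 units per the authors' deposited table (adjusted p = 3e-17). ARID5A, which protects inflammatory mRNAs from decay, fell by 1.16 per the authors' deposited table (adjusted p = 9.24e-13). CELF1, which binds GU-rich elements and promotes decay, rose by 0.51 per the authors' deposited table (adjusted p = 1.12e-12).

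**Figure D4:**
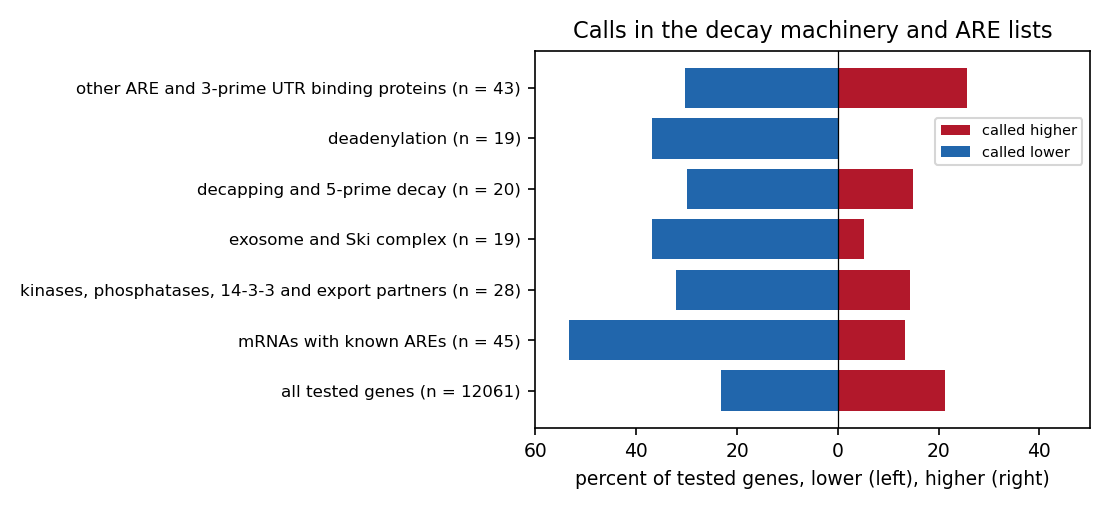
Bars show, for 6 gene lists and for all 12061 tested genes, the percent of tested genes called lower (blue, to the left) and higher (red, to the right) in shSTAT3 over scramble at the authors' adjusted p under 0.05. Lower calls reach 53.3% of the 45 tested mRNAs with known AREs and 36.8% of both the deadenylation and the exosome lists. The share of all tested genes was 23.2%. The lists were chosen with earlier results of these data known, so nothing is read from their shares.

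Of the mRNAs known to carry AREs, 24 of 45 tested genes were called lower (53.3%) and 6 higher (13.3%). The median log2 fold change of the 45 was −0.28. The shares of all tested genes were 23.2% lower and 21.3% higher. The list was chosen with earlier results of these data known, so nothing is read from these shares. The survival gene BCL2 and the angiogenic factor VEGFA had log2 fold changes of −0.89 and −1.06 per the authors' deposited table (adjusted p = 1.6e-37 and 3e-16). The replication-phase transcription factor E2F1 and the cyclin genes CCNA2, CCNB1 and CCND3 were at −1.04, −1.07, −0.94 and −0.66 per the authors' deposited table (adjusted p = 1.98e-36, 1.21e-35, 1.18e-24 and 4.24e-18). Without the cell division genes of the list, 19 of 38 tested genes were called lower and 6 higher, with a median of −0.28, while of the 7 tested cell division genes 5 were called lower and 0 higher by the authors' DESeq2 test, or 0 at an unadjusted p under 0.05.

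Among genes of the list named after their values were seen, the inflammatory cytokine IL1B and the growth factor CSF1 fell and the cytokine LIF rose, at log2 values of −1.41, −1.23 and 1.11, per the authors' deposited table (adjusted p = 2.8e-14, 1.39e-06 and 7.47e-08). KLF2, a quiescence factor, rose by 1.35 and NOTCH1 by 0.72 per the authors' deposited table (adjusted p = 6.29e-07 and 2.01e-14). TNF, the best known ZFP36 target, was at 0.08 per the authors' deposited table (adjusted p = 0.68). Of the 61 listed genes 9 were listed at 0, among them IL2, IL3, CSF2 and IFNG, and another 7 had no adjusted p. Of 42 list genes with a scanned 3′ UTR, 26 held the heptamer (61.9%, beside 31.6% of all genes), and of these 14 were called lower and 5 higher. Of the 16 without it, 8 were called lower and 1 higher, beside 23.2% and 21.3% of all tested genes.

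The calls of all tested genes were also set beside the number of heptamers in the 3′ UTR, as a description. Among the 1338 genes with 2 or more matches, 27.5% were called lower (95% Wilson interval 25.2 to 29.96, counting error only) and 18.3% higher (16.3 to 20.5). Among the 2006 genes with 1 match, 28.6% were called lower and 18.9% higher. Among the 7232 genes with 0 matches, 23.5% were called lower (22.5 to 24.5) and 21.2% higher (20.3 to 22.2). The median log2 fold changes were −0.07, −0.05 and 0.0027 for 2 or more, 1 and 0 matches. Genes are not independent replicates, and no test was made of these shares. The 3′ UTRs of the genes with 2 or more matches were also longer (median 3374 bases against 672 with 0 matches) and lower in GC (36.9% against 45.9%), and the part of GC content was not tested.

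The same shares were taken in 4 classes of 3′ UTR length that hold nearly equal numbers of genes. The third class runs from 1017 to 2314 bases. In it 32.3% of 285 genes with 2 or more matches were called lower, against 23.5% of 1699 genes with 0 matches. Called higher were 14.04% against 23.6%, and the intervals, of counting error only, did not overlap for either share. The median GC of these genes was 35.8% against 45.2%, and its part was not tested. In the second class, from 399 to 1016 bases, 32.4% of 102 genes with 2 or more matches and 24.1% of 2134 genes with 0 matches were called lower, and 12.7% and 19.5% higher, with overlapping intervals for both. In the class of the longest UTRs, the shares called lower were 25.5% of 940 genes with 2 or more matches and 24.4% of 948 genes with 0 matches, and those called higher 20.2% and 25.1%, again with overlapping intervals for both. The class of the shortest UTRs holds 11 genes with 2 or more matches, too few to read. For the 9-base form the shares were near each other, with 24.5% of 854 genes that hold it and 25.02% of 9722 genes that lack it called lower.

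**Figure D5:**
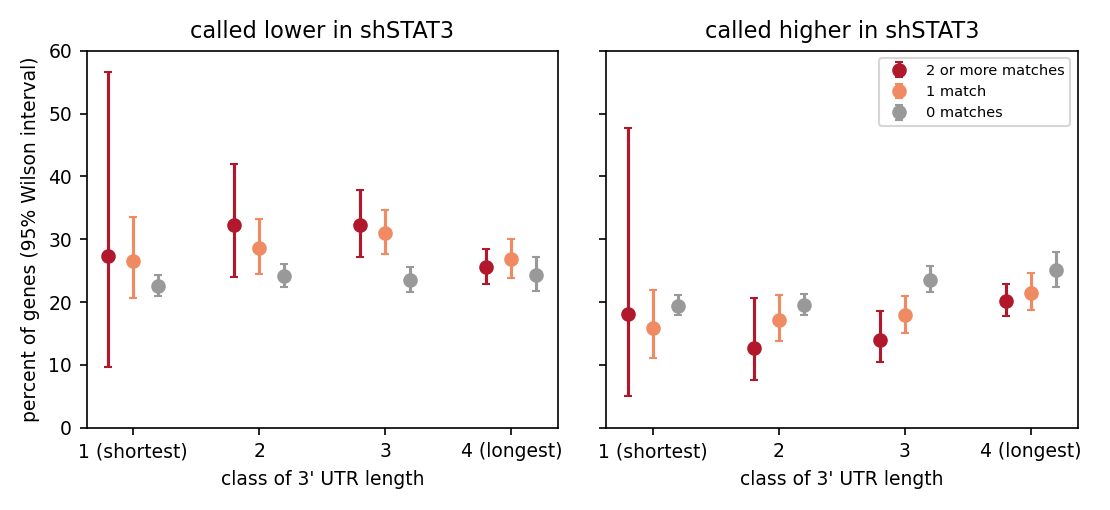
For 4 classes of 3′ UTR length on the x axis, points give the percent of tested genes called lower (left panel) and higher (right panel) in shSTAT3 over scramble, by the number of matches of the ARE heptamer, with 95% Wilson intervals. In the third class 32.3% of genes with 2 or more matches and 23.5% with 0 matches were called lower, and in the longest 25.5% and 24.4%.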

How the data were processed

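RNA of REH cells was sequenced in 3 shSTAT3 and 3 scramble libraries, made with an Illumina TruSeq RNA v2 kit per the labels' protocols. Tools in the submitters' processing notes are bcl2fastq 2.19, Trimmomatic, Bowtie2, Picard, featureCounts and DESeq2, with no order, role or setting, and the build is hg38. The sources used here do not name the annotation, the strand setting or the formula of the fit. No value per library stands in the authors' deposited table, so no SD, n or fit of samples stands behind a value below other than the authors' own. The table's mean is a normalized signal, the count over a size factor averaged by the authors over 6 libraries, per the file headers. The fold change was deposited as a log2 value. Shrinkage shows in the 1353 genes with a mean under 0.2, whose values lie within 0.0593 of 0. The deposited p-value and adjusted p are the authors' own, per the file headers. Of 26364 genes, 12061 have an adjusted p and are called tested here, and missing values were kept missing.

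A gene was called at an adjusted p under 0.05 of the authors' test over all tested genes. The standard error was taken as the size of the log2 fold change over the normal quantile of its p, as in a Wald test, and 95% intervals, which are those of shrunken values, follow from it. In 8 classes of mean, that standard error for smaller over larger fold changes lay between 0.949 and 1.02. Group levels were worked out from the mean and the fold change for groups of equal size, and levels per kb use the GENCODE 29 transcript with the longest coding sequence. 3′ UTRs of at least 30 bases came from the same transcripts. The plan held a count model for the case that counts per library were present, which was not used. The 9 genes and the 9 gene lists were chosen with earlier results of these data known. Genes named are STAT3, the 9 genes, for each list up to 3 called genes of smallest adjusted p (6 for mRNAs with known AREs), the 2 of highest mean in the cell type lists and the neighbours of ELAVL4. Any other gene named was chosen after its value was seen. Alternatives were a stricter threshold, other filters on the mean, another centring, another motif and another transcript. The standard error and motif steps were tested on simulated data. The tools were scipy 1.17.1, pandas 2.3.3, numpy 2.4.6 and matplotlib 3.10.9 under Python 3.11.15.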

Additional observations from a re-analysis of the deposited data

How the results depend on the processing

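No paired analysis was possible because the deposited table holds no values per library, and leaving out each replicate was not run for the same reason. Of the 6 tested genes other than ELAVL4, the number called lower was 3, against 2 at an adjusted p under 0.01, where ELAVL1 was lost, and 4 with fold changes centred on genes with a mean of at least 1000, where KHSRP passed. That centring lowered every fold change by 0.0188. None of the 6 was called higher under any of the 4 alternatives. At an adjusted p under 0.01, 6 other ARE-binding proteins, 0 exosome genes and 0 T-cell and myeloid markers were called higher and 3 B-cell precursor markers were called lower. With a mean of at least 50, 0 neuronal genes were called higher. With ATTTA in place of TATTTAT, genes with the fewest matches were called higher in 22.3% and lower in 20.6% of cases, and those with the most matches were called lower in 30.6%. With a mean of at least 50, genes with the fewest matches of TATTTAT were called higher in 22.5% and lower in 24.9% of cases. The longest 3′ UTR of each gene and the ARE list without cell division genes were chosen after seeing the data. The causes were not tested. Depth per library is not in the table, so precision is known only through the authors' p-values, and genes with a mean under 10.0 have no adjusted p.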

Other observations

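Neighbours of these genes in the genome moved both ways, beside 21.3% of all tested genes called higher and 23.2% lower. Those named below were picked after their values were seen. Of the neighbours not named below, some were called higher, some lower and some not called. LINC01126, a long noncoding RNA gene on the opposite strand that starts 601 bases from ZFP36L2, rose per the authors' deposited table (1.46 in log2 units, with a mean of 41.5 and an adjusted p of 1.56e-06), while ZFP36L2 itself was at 0.05 (adjusted p = 0.699). HNRNPDL, the paralogue of HNRNPD that lies 48061 bases from it, fell by 0.29 in log2 units per the authors' deposited table (adjusted p = 0.00314). RAD51B, a recombination gene that lies 57442 bases from ZFP36L1, fell by 0.53 per the authors' deposited table (adjusted p = 0.0378).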
